A study of Mus musculus musculus x M. m. domesticus and Mus musculus domesticus and Mus musculus with 12 samples.

Results

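Testis expression was compared between the fertile hybrid males (DxM) and the fertile males of the cross within Mus musculus musculus (MxM). The members are the 3 DxM and 3 MxM arrays of the 12 in the series, chosen by the genotype in the labels, and the comparison covers all 7000 genes measured. The DxM males had a LEWES/EiJ mother (M. domesticus) and a PWK/PhJ father (M. musculus). The MxM males had a PWK/PhJ mother and a CZECHII/EiJ father, both M. musculus. All 6 were F1 males labelled fertile and were killed at an age of 60 days. RNA of whole testis with an integrity number of 10 was hybridised to 1 Affymetrix mouse genome expression array per male. Both genotypes carry 1 PWK/PhJ genome, inherited from the father in DxM and from the mother in MxM. The other genome is LEWES/EiJ in DxM and CZECHII/EiJ in MxM. The X chromosome is LEWES/EiJ in DxM and PWK/PhJ in MxM, the Y chromosome PWK/PhJ and CZECHII/EiJ, and the mitochondria are those of the mother. Species of the second genome, strain, X chromosome, Y chromosome and mother therefore change together and cannot be told apart here. The remaining arrays are 3 DxD males (LEWES/EiJ x WSB/EiJ, fertile) and 3 MxD males (PWK/PhJ x LEWES/EiJ, sterile), and their values are used only beside those of DxM and MxM.

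In the mammalian testis, spermatogonia divide by mitosis, spermatocytes pass through meiosis, and haploid spermatids then build the acrosome and flagellum, supported by Sertoli cells in the tubule and by androgen from Leydig cells outside it. The X and Y chromosomes are transcriptionally silenced as spermatocytes enter pachytene. Part of the X is transcribed again in spermatids, so X-linked genes used after meiosis report on a chromosome that has passed through silencing. Males have 1 X chromosome, so X-linked transcripts of DxM and MxM come from chromosomes of different subspecies. Nearly all autosomal genes are present in DxM as 1 copy from each subspecies.

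Values are log2 expression per Ensembl gene after quantile normalization, so every array has the same lowest (3.08), median (8.14) and highest (13.3) value, and a difference of 1 is a factor of 2 in array signal. The number of arrays limits the precision. The deposited values name genes by Ensembl identifier and do not pair identifiers with gene names. Names were available for 45 genes, 32 of them X-linked, and a chromosome and cell class for part of the autosomal genes, both from the study's gene tables. The array probes were designed from a reference genome largely of M. domesticus origin, and the part of probe mismatch in any difference between genotypes was not tested.

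The MxM males differed more among themselves than the DxM males. Averaged over genes, the variance within a genotype was 0.0879 in MxM and 0.0203 in DxM, and the median SD of a gene over 3 males was 0.149 and 0.106. Correlations across genes between DxM males were 0.990 to 0.994. MxM replicates 1 and 2 correlated at 0.987, whereas MxM replicate 3 correlated with them at 0.948 and 0.969. In MxM replicate 3, 150 genes lay at least 1 log2 unit below the other 5 males, at a median level of 6.40 against 8.74 in the others, and only 1 gene lay that far above them. MxM replicates 1 and 2 had 4 and 1 genes that far below, and no DxM male had any. Of the 150 genes, 40 have an entry in the gene table used here, with 13 meiotic, 7 postmeiotic, 2 mitotic and 0 somatic genes and 18 without a class. Several results that rest on MxM replicate 3 are given with and without it, and the rest only with it.

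With limma on the 6 arrays, 533 of 7000 genes or 7.61% differed between DxM and MxM after Benjamini-Hochberg adjustment at 5%. Expression was higher in DxM for 207 genes (2.96% of all genes) and lower for 326 (4.66%). The share of differing genes with the higher mean in DxM was 38.8%, and 49.1% without MxM replicate 3. Genes are not independent replicates, so no interval is given for this share. Over all 7000 genes, 46.7% had the higher mean in DxM and the median difference was -0.02. At an unadjusted p under 0.05, 1663 genes (23.8%) differed. The males of the genotypes did not overlap in 2124 genes (30.3%), with every DxM male below every MxM male in 1270 (18.1%) and above in 854 (12.2%).

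Most differences were small. The absolute difference had a median of 0.15 log2 units over all genes and 0.58 over the differing genes, and no difference under 0.32 passed the test. With all 6 males, genes lower in DxM were more numerous among moderate differences, and genes higher in DxM among large ones. Between 0.5 and 1 log2 unit, 103 genes were higher and 187 lower in DxM, and at 1 unit or more, 44 were higher and 29 lower. Over all sizes the excess of lower genes was smaller without MxM replicate 3, at 287 higher and 298 lower. The split between 0.5 and 1 unit was not counted without that male. The 44 strongly higher genes had a median level of 7.91 in DxM and 6.25 in MxM. Their median levels were 8.25 in DxD and 7.79 in MxD, so MxM had the lowest of the 4 medians. The 29 strongly lower genes had a median level of 6.10 in DxM and 7.25 in MxM, beside 6.29 in DxD and 6.45 in MxD. Here MxM had the highest of the 4 medians. These genes were selected by the difference between DxM and MxM, and the levels are a description.

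**Figure D1:**
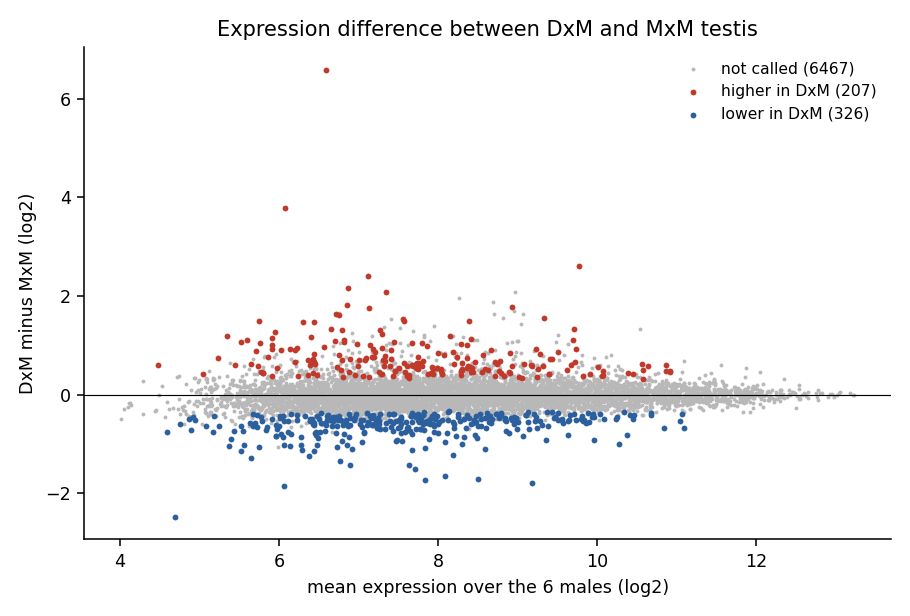
Difference DxM minus MxM (log2) against the mean expression over the 6 males (log2), 1 point per gene. The 207 genes higher in DxM (red) include those with the largest differences, the 326 lower genes (blue) mostly lie within 1 unit of 0, and grey points did not pass the test.

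The share of differing genes with the higher mean in DxM depended on the males in the fit. It was 36.97% without MxM replicate 1, 47.0% without MxM replicate 2, and 46.1%, 46.3% and 45.3% without DxM replicates 1, 2 and 3. Without MxM replicate 3, 585 genes differed, 287 higher and 298 lower in DxM, so that 49.1% were higher. Of these, 446 were also among the 533, with 182 higher and 264 lower. At 1 log2 unit or more, 45 genes were higher and 22 lower without it. Of the 150 genes far lower in MxM replicate 3, 2 were among the 533, beside 7.61% of all genes. These genes were chosen for a wide spread within MxM, which makes a call unlikely. The count therefore does not show how far the 533 genes depend on that male. The number of differing genes also depended on every male of DxM and on MxM replicate 2. It was 115, 123 and 86 without DxM replicates 1, 2 and 3, and 117 without MxM replicate 2. An exact permutation test of 3 against 3 males cannot give a two-sided p under 0.10, so single genes rest on limma, which borrows the spread across genes.

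The largest difference was in ENSMUSG00000030062. It measured 9.77, 10.04 and 9.83 in the DxM males and 3.08, 3.08 and 3.72 in the MxM males. No gene measured less than it did in 2 of the MxM males. The log2 difference was 6.59 (SE 0.19, limma adjusted p = 2.04e-05), and its size is limited by the lowest value of these arrays. The DxD males averaged 10.45 ± 0.08 and the MxD males 10.06 ± 0.09 (SD, n = 3 each). The gene was thus at a high level in the 3 genotypes with a LEWES/EiJ genome and near the array minimum in the genotype without one.

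ENSMUSG00000026096, a meiotic gene on chromosome 1, was also lowest in MxM. The DxM males measured 7.80, 8.03 and 8.08 and the MxM males 4.53, 3.72 and 4.29, a log2 difference of 3.79 (SE 0.20, limma adjusted p = 0.000271). The DxD males averaged 8.93 ± 0.15 (SD, n = 3) and the MxD males 7.96 ± 0.14 (SD, n = 3). Both hybrids lay between DxD and MxM, and closer to DxD.

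Among genes lower in DxM, ENSMUSG00000021125 had the largest difference. The DxM males measured 3.08, 3.08 and 4.20 and the MxM males 5.62, 5.85 and 6.32. The log2 difference was -2.48 (SE 0.33, limma adjusted p = 0.00834) and is limited by the lowest value of the arrays, which 2 DxM males had. DxD averaged 4.13 ± 0.18 (SD, n = 3) and MxD 3.34 ± 0.46 (SD, n = 3), both below every MxM male.

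ENSMUSG00000027827, a meiotic gene on chromosome 3, showed another order. It measured 5.09, 5.17 and 5.14 in DxM and 6.85, 7.13 and 6.98 in MxM, a log2 difference of -1.85 (SE 0.10, limma adjusted p = 0.000271). The DxD males averaged 7.05 ± 0.14 (SD, n = 3), close to MxM, and the MxD males 5.80 ± 0.02 (SD, n = 3). In this gene both hybrids lay below both crosses within a subspecies. These 4 genes were picked for their differences, so the absence of overlap between DxM and MxM follows from the choice. By mean level over the 6 males all 4 were among the dimmest 25% of genes.

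**Figure D2:**
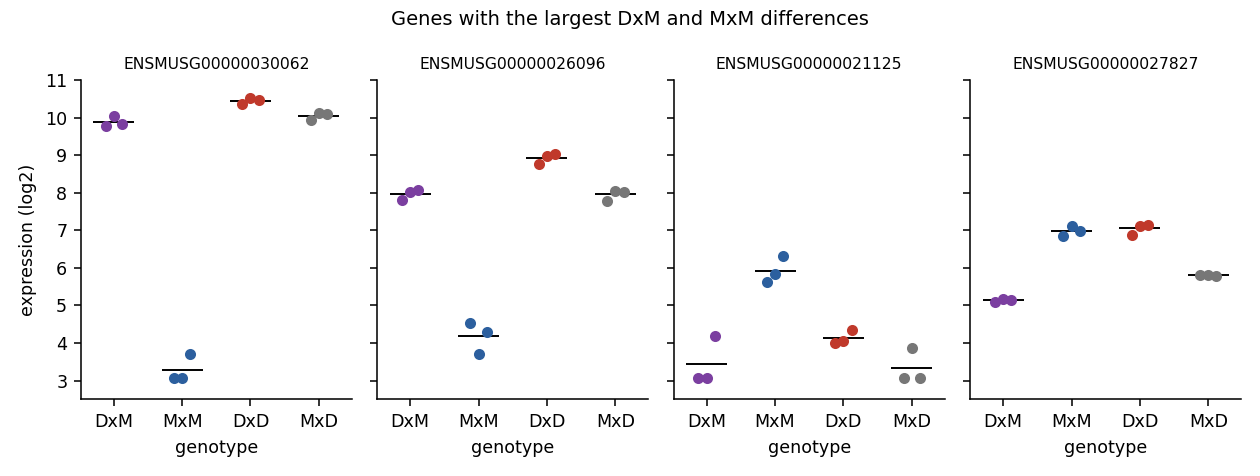
Expression (log2) of each male for 4 genes with large differences between DxM and MxM, by genotype, with 1 point per male and a line at the mean of 3. In the first 2 genes MxM stands below the other genotypes, in the third above them, and in ENSMUSG00000027827 both hybrids stand below DxD and MxM.

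The reciprocal contrast, MxD minus DxD, uses none of these 6 arrays. MxD has the autosomal genotype of DxM with the sexes of the parents exchanged, and DxD lacks the PWK/PhJ genome. The sign of MxD minus DxD was opposite to that of DxM minus MxM in 3744 of 7000 genes or 53.5%, and in 328 of the 533 differing genes or 61.5%. The directions were unequal. Of the 207 genes higher in DxM than in MxM, 160 or 77.3% were lower in MxD than in DxD, with a median of -0.28 for MxD minus DxD. Of the 326 lower genes, 168 or 51.5% were higher in MxD than in DxD, with a median of 0.02. Among differences of at least 1 log2 unit the shares were 39 of 44 (88.6%) for higher and 15 of 29 (51.7%) for lower genes. Without MxM replicate 3 the share over all differing genes was 61.5% as well. MxD males are sterile, and these shares are a description with no test.

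**Figure D3:**
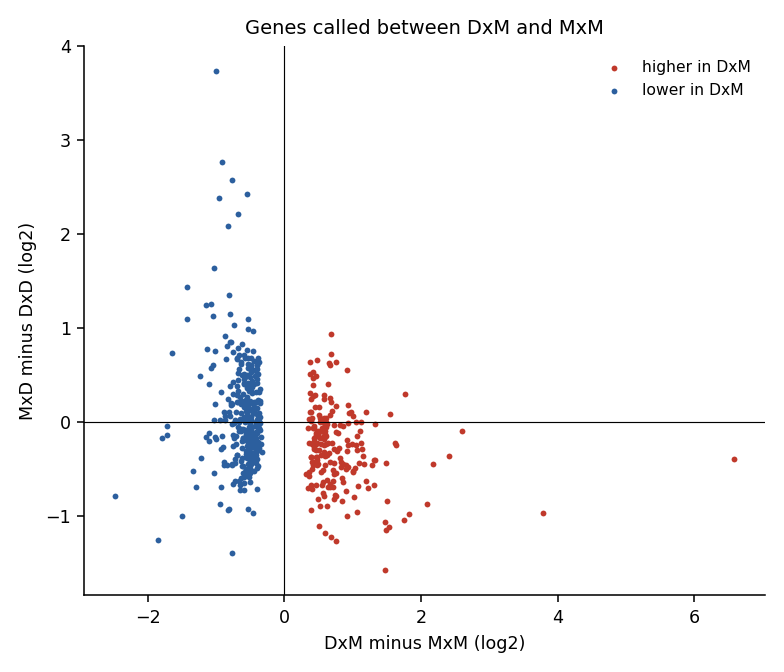
Difference MxD minus DxD against difference DxM minus MxM (both log2) for the 533 genes that differed between DxM and MxM, 1 point per gene. Most genes higher in DxM (red, 160 of 207) lie below 0 on the vertical axis, and genes lower in DxM (blue) spread to both sides of it.

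Genes of the cell classes were counted over the 1997 autosomal genes with an entry in the gene table used here, on chromosomes 1 to 4 and part of 5. In whole testis, fewer cells of a type and less RNA per cell cannot be told apart. Of these genes 161 or 8.06% differed, beside 7.61% of all genes, and 1102 of them have a class. Among 367 mitotic genes, used in spermatogonia, 21 or 5.72% differed, with 15 (4.09%) higher and 6 (1.63%) lower in DxM. The class was not tested as a whole. Without MxM replicate 3, 27 mitotic genes were higher and 5 lower, beside 287 and 298 of all genes. The median difference of the mitotic genes was 0.03, and it was -0.02 without MxM replicate 1. Among 269 postmeiotic genes, used in spermatids, 31 or 11.5% differed, 12 (4.46%) higher and 19 (7.06%) lower in DxM. Without MxM replicate 3 the split was 15 and 16, beside 287 and 298 over all genes.

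Of 324 meiotic genes 21 or 6.48% differed, 11 higher and 10 lower in DxM. This even split did not hold in the fit over all 12 arrays, with 23 higher and 38 lower, or with array weights, with 26 and 40. Over all genes the fit over 12 arrays had 456 higher and 725 lower. With array weights 42.1% of all differing genes were higher, so the meiotic split was near that of all genes in both fits. Of 142 somatic genes, a class the study defined by Sertoli cells, 9 or 6.34% differed, 3 higher and 6 lower. The median differences of both classes were -0.03. The counts of every class depended on which male was left out, with 2 to 32 mitotic, 2 to 36 postmeiotic, 4 to 23 meiotic and 2 to 17 somatic genes over the 6 fits without a single male. The count over all genes also changed in these fits, from 86 to 679. The highest counts came without MxM replicate 1 or 3 and the lowest without MxM replicate 2 or a DxM male. The mean level of a class in a male was set against the mean over the 6 males. For mitotic genes it was 0.02, 0.05 and 0.01 log2 units above the mean in DxM, and it was -0.07 and -0.05 in MxM replicates 1 and 2 but 0.04 in MxM replicate 3. Thus MxM replicate 3 lay within the range of DxM. Somatic genes were at 0.11 in MxM replicate 3 and between -0.04 and 0.01 in the other 5 males. The part of a different share of somatic cells in the values of this male was not tested. In none of the 4 autosomal classes did all DxM males lie on one side of all MxM males.

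**Figure D4:**
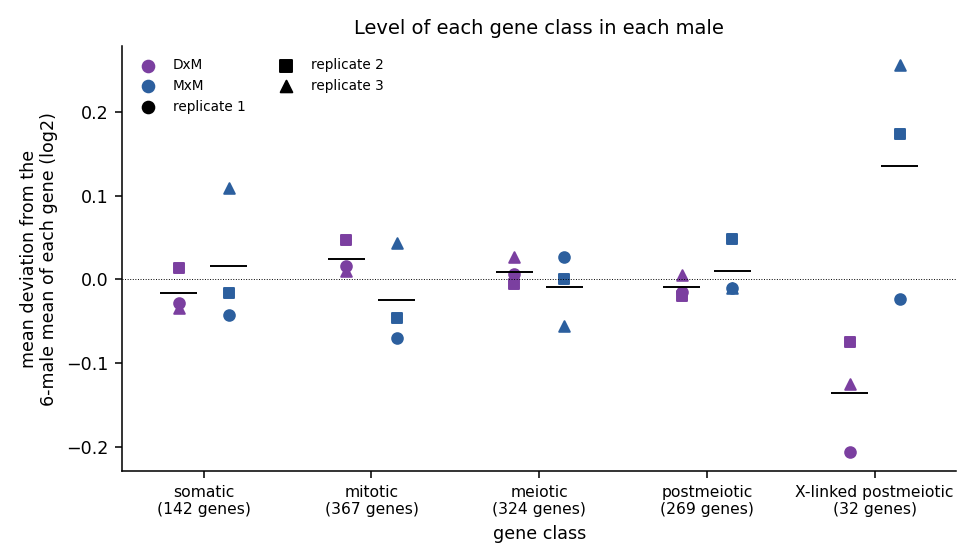
Mean deviation of each male from the 6-male mean of each gene (log2), averaged over the genes of a class, with symbols for replicates and lines at the genotype means. The DxM males lie below all MxM males in the X-linked postmeiotic genes, and MxM replicate 3 is highest in the somatic genes.

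The study names 32 X-linked and 13 autosomal genes that it selected on these same males. Each had to differ between MxD and DxM and between MxD and at least 1 of the crosses within a subspecies. The postmeiotic genes were chosen for higher and the mitotic genes for lower expression in MxD than in the 3 fertile genotypes. This choice can favour a low level in DxM for the postmeiotic genes and a high one for the mitotic genes. Their direction is therefore not independent evidence. The 32 X-linked genes are all postmeiotic and start between 8.68 and 166.2 Mb of the X chromosome (NCBI build 37). Of these, 30 had the lower mean in DxM and 6.25% the higher mean. Without MxM replicate 3, 21.9% of the X-linked genes had the higher mean in DxM. Lower expression in DxM passed the test in 5 genes or 15.6%, beside 4.66% of all genes, and no X-linked gene was higher. In 16 genes every DxM male lay below every MxM male, beside 18.1% of all genes, and in none above. The median difference was -0.22, beside -0.02 over all genes, and the range was -1.14 to 0.22. Averaged over the 32 genes, the deviation from the 6-male mean was -0.21, -0.08 and -0.12 in the DxM males and -0.02, 0.17 and 0.26 in the MxM males, so every DxM male lay below every MxM male. Without MxM replicate 3, 3 genes passed the test, beside 585 of all 7000 genes, and the median was -0.19. With other single males left out 1 to 12 genes passed, beside 86 to 679 of all genes.

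1110059M19Rik (ENSMUSG00000037086, from 42444081 on the X chromosome), a gene whose function was not available here, had the largest difference. The DxM males measured 5.92, 5.79 and 5.88 and the MxM males 6.88, 7.02 and 7.13. Every DxM male lay far below every MxM male, with a log2 difference of -1.14 (SE 0.09, limma adjusted p = 0.00214) or 2.21-fold. DxD males, with the same LEWES/EiJ X chromosome as DxM, averaged 6.05 ± 0.04 (SD, n = 3), and MxD males, with the PWK/PhJ X chromosome of MxM, 7.30 ± 0.10 (SD, n = 3). Both genotypes with the LEWES/EiJ X chromosome were thus at a lower level than both with the PWK/PhJ X chromosome.

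Ctag2 (ENSMUSG00000031181, from 62300819), a member of the cancer/testis antigen genes, which are mainly used in germ cells and tumours, measured 9.40, 9.47 and 9.26 in DxM and 9.76, 9.89 and 10.07 in MxM. It was 1.44-fold lower in DxM, with a log2 difference of -0.53 (SE 0.11, limma adjusted p = 0.0337). Piga (ENSMUSG00000031381, from 160857719), which acts in the first step of the synthesis of glycosylphosphatidylinositol membrane anchors, measured 7.02, 7.26 and 7.12 in DxM and 7.47, 7.67 and 7.85 in MxM. Its log2 difference was also -0.53 (SE 0.12, limma adjusted p = 0.0431). In both genes DxD, at 9.39 ± 0.13 and 7.25 ± 0.04 (SD, n = 3), lay near DxM, and MxD, at 10.39 ± 0.14 and 7.93 ± 0.14 (SD, n = 3), above MxM.

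Ribc1 (ENSMUSG00000025257, from 148439125), which encodes a protein of the microtubules of cilia and flagella, measured 8.36, 8.41 and 8.51 in DxM and 8.78, 8.92 and 9.09 in MxM. The log2 difference was -0.50 (SE 0.10, limma adjusted p = 0.0344). AL773568.19 (ENSMUSG00000051139, from 160198169), which the study describes as a transcribed pseudogene, measured 8.0, 8.05 and 8.04 in DxM and 8.30, 8.53 and 8.59 in MxM. Its log2 difference was -0.44 (SE 0.10, limma adjusted p = 0.0416). Probes of a pseudogene can also bind transcripts of its parent gene, so this value is uncertain. The males of DxM and MxM did not overlap in either gene, and DxD averaged 8.48 ± 0.01 and 8.24 ± 0.12 (SD, n = 3).

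All of these calls but that of 1110059M19Rik were close to the threshold. AL773568.19 and Piga did not pass it without MxM replicate 3. Ctag2, Ribc1, AL773568.19 and Piga did not pass it when MxM replicate 2 or any single DxM male was left out. 1110059M19Rik passed it without each male in turn. This gene was among the dimmest 25% of genes, so the fit without those genes did not include it. A further 7 X-linked genes lay just above the threshold, with limma adjusted p between 0.0503 and 0.0789, and all had lower values in every DxM male than in any MxM male. They include Actrt1, an actin-related protein of the sperm head, with a log2 difference of -0.51 (SE 0.13, limma adjusted p = 0.0532), and Efhc2, a protein of axonemal microtubules, with -0.34 (SE 0.09, limma adjusted p = 0.0747). Satl1 had a difference of -0.32 and the 4 genes 4930468A15Rik, 4930412D23Rik, 4930402K13Rik and 1600014K23Rik had differences of -0.56, -0.50, -0.45 and -0.34.

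Other X-linked genes lay further from the threshold. Cypt5, which encodes a cysteine-rich protein of the perinuclear theca that surrounds the sperm nucleus, measured 11.25, 11.41 and 11.29 in DxM and 11.26, 11.56 and 11.57 in MxM, with a log2 difference of -0.15 (95% interval -0.41 to 0.11). Tsga8, the brightest of the 32 genes, measured 11.68, 11.71 and 11.89 in DxM and 11.94, 12.20 and 12.15 in MxM, a difference of -0.34 (95% interval -0.59 to -0.09, limma adjusted p = 0.10). Gm364 and 4933400A11Rik were the only 2 of the 32 with the higher mean in DxM, at 0.22 (95% interval -0.17 to 0.61) and 0.07 (95% interval -0.24 to 0.38), and their males overlapped. Relative to DxD, which has the same X chromosome, 22 of the 32 genes had the lower mean in DxM, and 26 had the higher mean in MxM than in DxD.

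**Figure D5:**
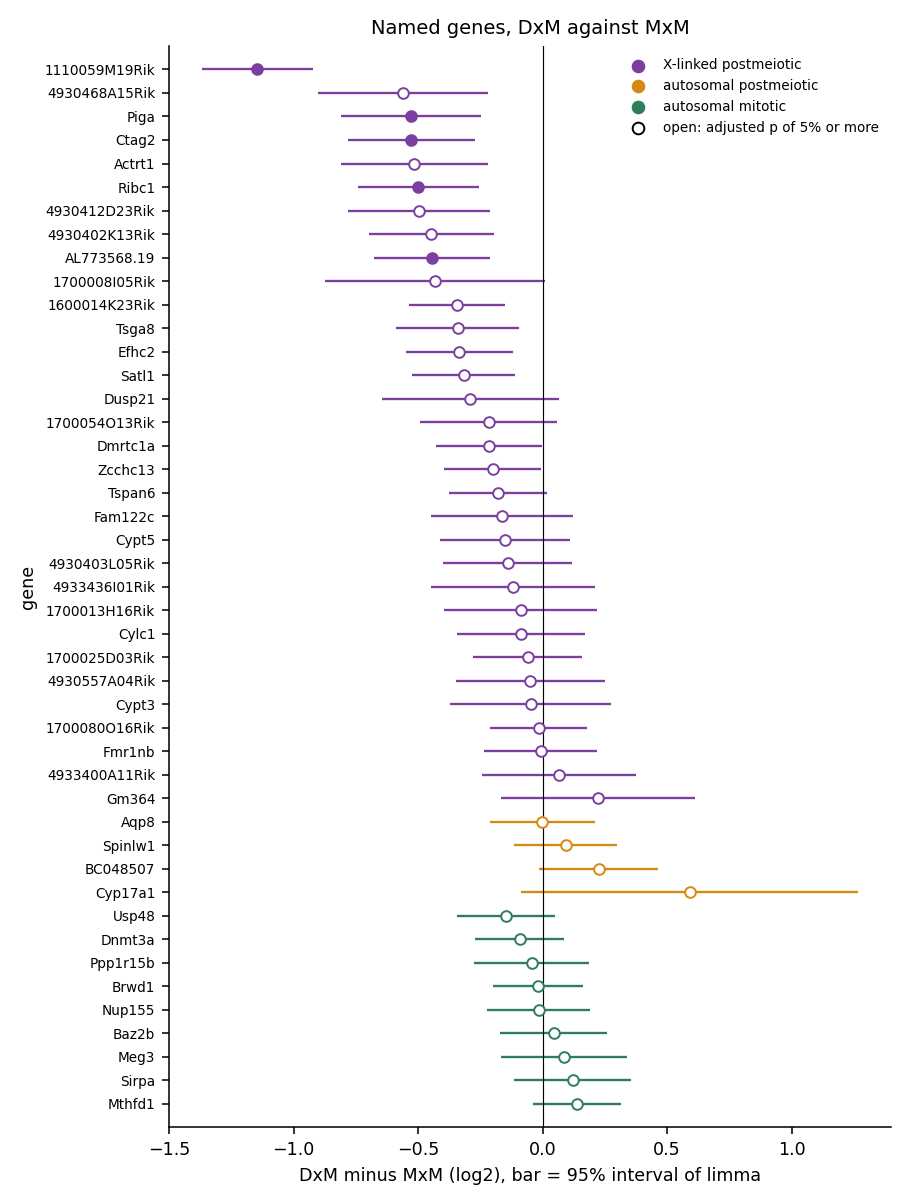
Log2 difference DxM minus MxM of the 32 X-linked postmeiotic and 13 autosomal genes, with the 95% interval of limma and filled symbols for an adjusted p under 5%. The 5 filled symbols are all X-linked and lower in DxM, and the autosomal mitotic genes lie between -0.15 and 0.14.

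The 13 autosomal genes did not pass the test with limma, beside 7.61% of all genes that did. Of the 13, 0 had an unadjusted p under 0.05, beside 23.8% of all genes. In other fits up to 2 of them passed, and these were Cyp17a1 and BC048507. The 9 mitotic genes had a median difference of -0.02 and a range of -0.15 to 0.14. Dnmt3a, a DNA methyltransferase that sets new methylation marks, measured 5.26, 5.26 and 5.22 in DxM and 5.40, 5.30 and 5.32 in MxM. Every DxM male was slightly lower, at a log2 difference of -0.09 (95% interval -0.27 to 0.09, limma adjusted p = 0.515). Brwd1, a bromodomain protein that binds acetylated chromatin and is needed for fertility, measured 6.54, 6.55 and 6.49 in DxM and 6.53, 6.5 and 6.60 in MxM. The log2 difference of -0.02 (95% interval -0.20 to 0.16, limma adjusted p = 0.908) was smaller than the spread of the MxM males.

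Mthfd1, an enzyme of folate metabolism, was higher in every DxM male, at 6.53, 6.48 and 6.48 against 6.32, 6.40 and 6.35, with a difference of 0.14 (95% interval -0.04 to 0.31). Usp48, a deubiquitinating enzyme, had the lowest difference of the 9, at -0.15 (95% interval -0.34 to 0.05). Meg3, an imprinted non-coding RNA expressed from the maternal copy, differed by 0.09 (95% interval -0.17 to 0.34). The maternal copy is LEWES/EiJ in DxM and PWK/PhJ in MxM. Which copy was expressed in these testes was not measured. Sirpa, a membrane receptor for CD47, differed by 0.12. Baz2b, a bromodomain protein, Ppp1r15b, a subunit that directs a phosphatase to eIF2alpha, and Nup155, a nuclear pore protein, differed by 0.05, -0.04 and -0.02.

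Among the 4 autosomal genes classed as postmeiotic, Cyp17a1, the enzyme of Leydig cells that leads from progestogens to androgens, had the widest spread. The DxM males measured 10.61, 10.68 and 10.40. MxM replicates 1 and 2 measured 9.69 and 9.54, below all DxM males, and MxM replicate 3 measured 10.69, above them. With all 6 males the log2 difference was 0.59 (95% interval -0.09 to 1.27, limma adjusted p = 0.273), and without MxM replicate 3 it was 0.95 (limma adjusted p = 0.00488). With array weights it was 0.85 (limma adjusted p = 0.0193). MxM replicate 3 is the male with the highest level of somatic genes. That class was defined by Sertoli cells and does not measure the share of Leydig cells. The part of cell composition in the Cyp17a1 value of this male was not tested. The DxD males also spread widely, at 9.84, 10.61 and 9.97. BC048507 was higher in every DxM male, at 10.72, 10.87 and 10.71 against 10.40, 10.56 and 10.68, with a difference of 0.22 (95% interval -0.01 to 0.46, limma adjusted p = 0.238). Over all arrays without MxM replicate 3 the difference was 0.29 (limma adjusted p = 0.0364). Spinlw1, a protease inhibitor that coats sperm, and Aqp8, a water channel of germ cells, differed by 0.09 (95% interval -0.11 to 0.30) and by 0.00 (95% interval -0.21 to 0.21).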

How the data were processed

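The deposited values are log2 expression, which the authors obtained with PLIER from probes grouped by Ensembl gene (version 52, NCBI build 37) through BRAINARRAY version 11 definitions. Only genes detected on all 12 arrays were retained by them, and the arrays were brought to a common distribution by quantile normalization. The values were used without change. No per-sample column was left out. Genotypes come from the labels. DxM and MxM were compared with limma 3.58.1 in R 4.3.3, two-sided, on their 6 arrays, with Benjamini-Hochberg adjustment over 7000 genes at 5%. The fit over 12 arrays was an alternative, because MxM males vary more than the spread it assumes. Other alternatives were Student's t-test, which the study's methods name, and a t-test assuming unequal variances. The rest were the replicate number as a block, a trend and robust prior, array weights (gene-by-gene method, since the default did not converge), removal of the dimmest 25% of genes, other scalings, a threshold of 1% and each male left out. A further 2 were added after seeing the data, all arrays without MxM replicate 3, and the 6 arrays without the genes at least 1 log2 unit lower in that male than in the other 5. The procedure was tested on simulated data.

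The rule for named genes took the largest differences among genes with a symbol, the strongest members of fixed lists, and Dnmt3a and Brwd1. Only 6 of 699 list symbols could be paired with an identifier (Dnmt3a, Meg3, Cyp17a1, Ctag2, Piga and Tsga8), so the 32 lists, cell type markers and Y-linked genes included, were not analysed here beyond these genes. The 4 genes given by identifier and the other named genes were chosen after their values were seen. Members and lists were chosen with earlier results of these data known. Classes come from a shortened gene table, so no enrichment was tested. The labels give separate males per genotype. Plots were made in Python 3.11.15 (matplotlib 3.10.9).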

Additional observations from a re-analysis of the deposited data

How the results depend on the processing

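The number of genes differing between DxM and MxM was 1181 in the fit over all 12 arrays, which held 530 of the 533 genes, 1421 with array weights, 107 at an adjusted threshold of 1%, 179 by the methods' t-test assuming equal variances and 4 assuming unequal variances, where 1282 genes had an unadjusted p under 0.05. In the fit over all arrays without MxM replicate 3, the number of differing genes was 1052. Without the genes far lower in MxM replicate 3 it was 627. Both of these fits were chosen after seeing the data. With single males left out the number was 86 to 679. The share higher in DxM was 50.0% with unequal variances, 47.7% at 1% and 47.1% over all arrays without MxM replicate 3, and 36.97% to 49.1% with single males left out. The share with the opposite sign in MxD minus DxD was 100% with unequal variances (4 genes), 72.0% at 1%, and 61.5% to 71.8% with single males left out. The cause of these shifts was not tested.

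The replicate number as a block gave 608 genes on 6 arrays and 1918 on all 12. Deviations from the genotype means of same-numbered DxM and MxM males correlated at 0.60, 0.21 and -0.05 for replicates 1, 2 and 3, and not every male correlated best with its own number, so the number was not taken to pair males. With the block on 6 arrays, Ctag2 no longer passed the threshold and 8 X-linked genes did, and with the block on all 12 arrays 16 X-linked genes and BC048507 (limma adjusted p = 0.0408) passed.

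Over 19 alternatives, none called any of the 32 X-linked genes higher in DxM. Of the 32, 13 passed in the fit over all 12 arrays, beside 1181 of 7000 genes, and 16 with array weights, beside 1421. With arrays centred on the autosomal median 11 passed, beside 624 genes. Without the genes far lower in MxM replicate 3 it was 10, beside 627 of 6850 genes. By the t-test assuming unequal variances 0 passed, beside 4 genes. In that test 13 had an unadjusted p under 0.05, beside 1282 genes. By Student's t-test 1 passed, beside 179 genes, and 16 had an unadjusted p under 0.05, beside 1559. A total of 615 pairs of an alternative and a gene described singly above were compared. Of these, 500 kept direction and side of the threshold, 37 lost the call, 59 gained one and 19 changed sign. The sign changes in these pairs fell in 6 genes with a difference of at most 0.07 that did not pass the test. X-linked genes not described singly above are not in these pairs, and some of them also changed sign. Without MxM replicate 3, 21.9% of the 32 X-linked genes had the higher mean in DxM, beside 6.25% with it. With array weights the difference was 0.045 for Ppp1r15b, 0.031 for Aqp8 and 0.0045 for Brwd1, and with arrays centred on the autosomal median it was 0.0018 for Aqp8. Over all arrays without MxM replicate 3 it was 0.034 for Ppp1r15b, 0.066 for Aqp8, 0.0079 for Nup155 and 0.0096 for Brwd1. With single males left out it ranged from -0.096 to 0.034 for Ppp1r15b, -0.043 to 0.066 for Aqp8, -0.0073 to 0.11 for Baz2b, -0.081 to 0.025 for Nup155, -0.042 to 0.0096 for Brwd1 and -0.034 to 0.16 for 4933400A11Rik.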
